A study of Mus musculus with 8 samples.

Results

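The transcripts described here are 41 genes of monocytes, macrophages and leukocytes in general, among 31607 genes listed for sorted cells of adult mouse lung. They were chosen by symbol as genes of myeloid cells, which a sort against the leukocyte antigen CD45 is meant to remove, and genes with low counts or without a p-value were kept. The choice was made with earlier results of these data known. The HhipCKO mice carried UBCcreER, Myh11creER and 2 floxed alleles of Hhip, where UBCcreER is a tamoxifen-inducible Cre driven by the ubiquitin C promoter and Myh11creER one driven by a smooth muscle promoter. Control mice carried the floxed alleles without Cre, and both groups received tamoxifen, with 4 samples in each group. Cells negative for CD45, CD31, Epcam and the dead-cell dye DAPI were sorted from the lungs, although the submitters' extraction protocol speaks of cultured cells. The ubiquitin C promoter is active in most cell types, leukocytes included, so Cre was not limited to mesenchyme in this model. Nothing in the labels says that the samples of a group came from separate animals, and if they did not, the p-values measure a spread that may be technical.

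Mouse monocytes circulate in 2 main forms. Classical monocytes carry Ly6C and CCR2 and enter inflamed tissue, whereas nonclassical monocytes carry little Ly6C and patrol the inside of vessels, the lung capillaries among them. Lung macrophages comprise alveolar macrophages, which live in the airspace and take up surfactant, and interstitial macrophages, many of which make complement C1q. All of these cells express Ptprc, the gene of CD45, and depend on the transcription factor PU.1, the product of Spi1.

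Hhip, the hedgehog-interacting protein that the Cre drivers delete, was lower in HhipCKO samples, at 10030 normalized counts against 61686 in Control samples as implied by its mean and fold change (log2 fold change -2.62 ± 0.32 SE, adjusted p = 9.55e-13 per the authors' deposited table). The 12 mesenchymal markers, which make up 3.52% of the summed mean count of all genes, had a median log2 fold change of -0.03. The 41 myeloid and leukocyte genes made up 0.0493% of it, and 70.7% of that came from the lysozyme genes Lyz1 and Lyz2. Without the lysozymes the share was 0.0144%, so these transcripts were a trace in the sorted cells of either group. In bulk RNA, fewer cells of a type and less RNA per cell cannot be told apart.

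Of the 6 genes among the 41 grouped here under nonclassical monocytes, 5 were higher in HhipCKO mesenchyme preparations on at least 1 of 2 adjustments. The rises were 4.22-fold to 17-fold. This grouping was made with earlier results of these data known, so the count describes the group and does not test it. The authors' adjustment called 3 of the 6 genes, and the adjustment over every gene with a p-value called 4, without Adgre4. Most other monocyte and macrophage genes had positive values without passing the test. Of further genes known from nonclassical monocytes, Spn, Cx3cr1, Pglyrp1, Itgal, Eno3 and Ace had log2 fold changes of 1.33, 1.15, 0.90, 0.70, 0.15 and -0.36, and none of them passed (adjusted p of 0.243 to 0.68, Wald test per the authors' deposited table). Their mean counts ran from 62.5 for Cx3cr1 to 2174 for Eno3 and 34615 for Ace, against 20.9 to 87.7 for the 6 genes. How much of these transcripts came from other cells was not tested. Of the 41 genes, 35 had an adjusted p-value. Fcgr4, Fgr and Adgre4 rose at an adjusted p of at most 0.05, none fell, and 32 did not pass (Wald test of the authors' fit with Benjamini-Hochberg adjustment). No call was left when all Wald scores were divided by their robust SD of 1.53, which gave an adjusted p of 0.4 for Fcgr4, 0.408 for Fgr and 0.74 for Adgre4 (Wald test). Over all 17469 genes with an adjusted p, 3.06% rose and 3.92% fell by the same rule. Cd300e and Treml4 had mean counts below 42.1, the lowest mean with an adjusted p, so the authors' deposited table gives them none. With the adjustment run over all 31457 genes that had a p-value, Fgr, Fcgr4, Cd300e and Treml4 passed and Adgre4 did not, at an adjusted p of 0.0515, where 1.27% of all genes rose. The log2 fold change was positive for 37 of the 41 genes, or 90.2%, and for 52.7% of all genes with an adjusted p. The median was 1.06 over the 41 genes and 0.0188 over all genes with an adjusted p. Because the 41 genes were chosen with earlier results known, these shares and medians describe the list and do not test it. An unadjusted p below 0.05 was reached by 11 of the genes, all of them higher in HhipCKO samples, and by 6.59% of all genes in that direction.

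**Figure D1:**
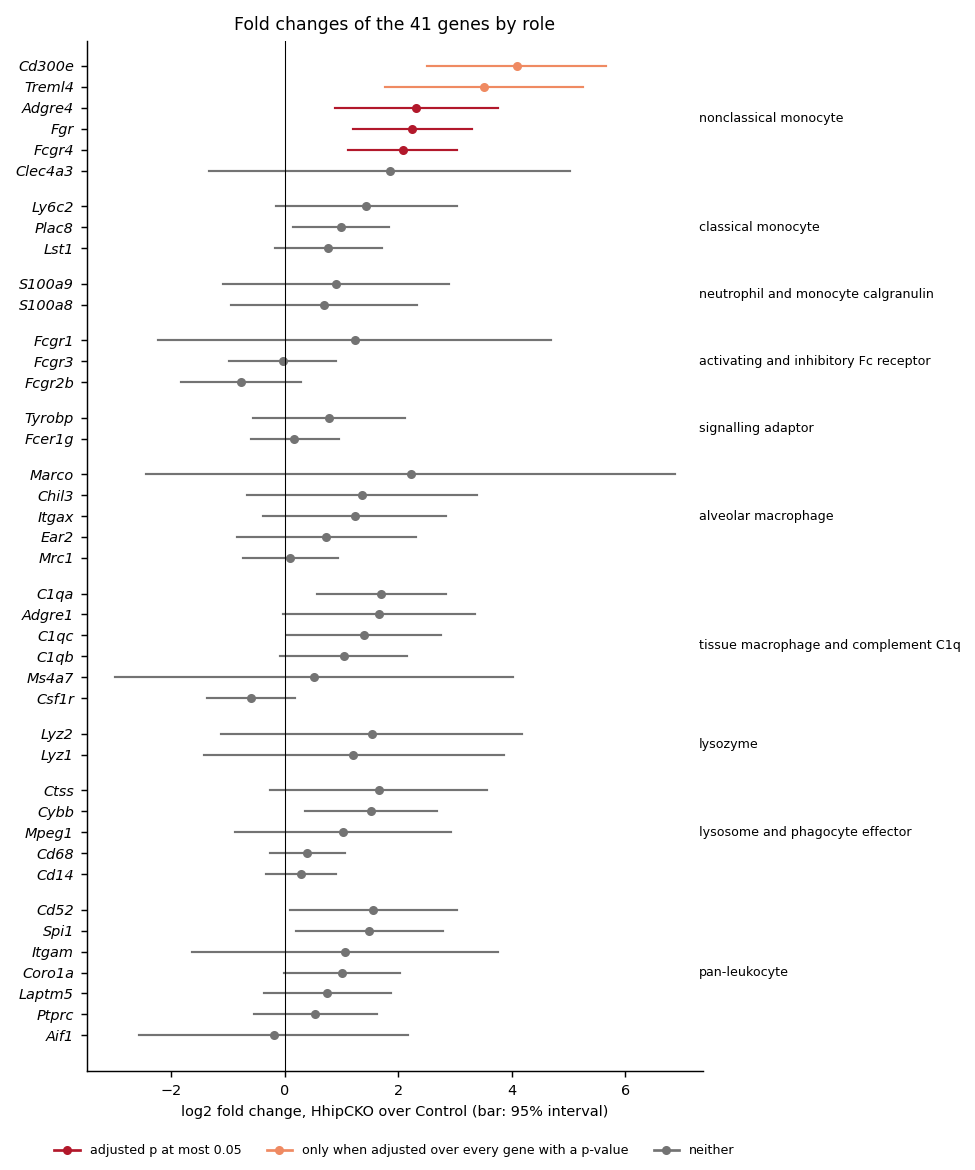
Log2 fold change, HhipCKO over Control, of each of the 41 genes (horizontal axis) with its 95% interval from the deposited standard error, grouped by role. The intervals of 11 genes lie wholly above 0, those of Cd300e, Treml4, Adgre4, Fgr and Fcgr4, which are coloured by how they were called, and those of C1qa, Cybb, Spi1, Plac8, Cd52 and C1qc, and Fcgr3, Fcgr2b, Csf1r and Aif1 have negative values.

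Shown here are the promoters of the 5 nonclassical monocyte genes that passed on either adjustment, each of them higher in HhipCKO samples. Whether these genes share a control was not tested. Each is the reference sequence in RefSeq on GRCm38.p6, from 250 bases before to 50 bases after the annotated start, read on the gene's own strand. Capitals mark GAGGAA or its reverse complement TTCCTC, the core that PU.1 binds. Fcgr4 lies at chr1:171018676-171018975 (plus strand), Fgr at chr4:132973845-132974144 (plus strand), Adgre4 at chr17:55749734-55750033 (plus strand), Treml4 at chr17:48264045-48264344 (plus strand) and Cd300e at chr11:115061990-115062289 (minus strand).
Fcgr4: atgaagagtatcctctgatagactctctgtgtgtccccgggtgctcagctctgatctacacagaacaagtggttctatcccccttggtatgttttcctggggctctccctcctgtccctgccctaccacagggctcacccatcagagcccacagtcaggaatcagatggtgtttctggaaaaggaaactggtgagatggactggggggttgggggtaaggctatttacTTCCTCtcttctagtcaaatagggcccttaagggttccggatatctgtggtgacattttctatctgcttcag
Fgr: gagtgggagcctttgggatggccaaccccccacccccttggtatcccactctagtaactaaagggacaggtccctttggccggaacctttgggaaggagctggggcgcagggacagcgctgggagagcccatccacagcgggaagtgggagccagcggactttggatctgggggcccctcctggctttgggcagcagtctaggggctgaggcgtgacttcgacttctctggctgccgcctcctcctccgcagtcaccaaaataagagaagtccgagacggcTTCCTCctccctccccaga
Adgre4: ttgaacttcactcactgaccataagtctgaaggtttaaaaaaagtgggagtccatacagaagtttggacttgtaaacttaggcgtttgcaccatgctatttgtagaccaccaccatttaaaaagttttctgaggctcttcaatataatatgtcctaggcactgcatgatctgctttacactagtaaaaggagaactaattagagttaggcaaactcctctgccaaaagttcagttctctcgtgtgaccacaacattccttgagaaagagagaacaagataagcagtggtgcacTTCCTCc
Treml4: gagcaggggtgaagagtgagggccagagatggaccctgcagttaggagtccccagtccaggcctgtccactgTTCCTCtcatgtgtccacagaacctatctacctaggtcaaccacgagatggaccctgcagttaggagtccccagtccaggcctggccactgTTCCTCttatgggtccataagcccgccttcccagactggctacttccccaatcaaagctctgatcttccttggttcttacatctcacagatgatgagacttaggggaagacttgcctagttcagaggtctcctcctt
Cd300e: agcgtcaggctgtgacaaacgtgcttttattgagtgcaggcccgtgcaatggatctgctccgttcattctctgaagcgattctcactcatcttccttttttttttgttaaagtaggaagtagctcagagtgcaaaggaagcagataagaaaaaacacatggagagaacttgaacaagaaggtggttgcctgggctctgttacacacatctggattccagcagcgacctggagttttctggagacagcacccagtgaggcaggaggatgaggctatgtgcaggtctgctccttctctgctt

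The marked motif GAGGAA, searched on both strands, was present in 4 of these 5 promoters, with 2 matches in Treml4 and none in Cd300e. It was present in 21 of the 33 promoters of the 41 genes that the RefSeq table held, or 63.6%, against 28.3% of all 27025 promoters of the same length. The longer form GAGGAAGT, which contains GAGGAA, was present in 6 of the 33 promoters, or 18.2%, among them those of Fcgr4 and Adgre4, against 3.28% of all promoters. A match is a run of letters and was not tested for binding.

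The deposited table holds 1 row per gene and no values per sample. Its mean counts, fold changes and standard errors are written with enough digits that, for genes of low count, only 1 set of 8 whole counts gives all of them, and these counts were recovered for 21 of the 22 genes tried, with mean counts of 5.86 to 172. The 8 libraries are called HhipCKO a to d and Control a to d in falling order of size factor, the divisor that evens out sequencing depth. The size factors were 1.061, 1.047, 1.044 and 1.026 in HhipCKO libraries and 1.004, 0.977, 0.952 and 0.939 in Control libraries, so every HhipCKO library had a larger size factor than every Control library. The letters match no replicate number of the labels. Values per library below are counts divided by the size factor. For the other 20 genes, group means are those implied by the deposited mean and fold change.

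Fcgr4, the activating Fc receptor for IgG that marks nonclassical monocytes, had 230, 150, 69 and 118 normalized counts in HhipCKO a to d, against 21.9, 20.5, 32.6 and 59.7 in Control a to d. Every HhipCKO library lay above every Control library, with Control d nearest to HhipCKO c. The group means were 142 ± 67.6 in HhipCKO and 33.7 ± 18.2 in Control libraries (SD, n = 4 each). The fold was 4.22 (95% interval 2.16 to 8.22, log2 fold change 2.08 ± 0.49 SE, adjusted p = 0.00167 per the authors' deposited table). The exact two-sided permutation test over libraries gave p = 0.0286, the smallest that 4 against 4 can give. The gene spans bases 171018920 to 171029761 of chromosome 1 on the plus strand (GRCm38, GENCODE M21).

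Fgr, a Src-family kinase of myeloid cells, had 150, 253, 55.6 and 78 normalized counts in HhipCKO a to d, against 31.9, 18.4, 21 and 41.5 in Control a to d. The groups did not overlap, and HhipCKO b was the highest library. The fold was 4.75 (95% interval 2.29 to 9.86, log2 fold change 2.25 ± 0.54 SE, adjusted p = 0.00184 per the authors' deposited table), and the exact permutation p was 0.0286. Fgr lies on chromosome 4, bases 132974095 to 133001910, plus strand.

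Cd300e, an activating receptor of the CD300 family on monocytes, had the largest fold change of the 41 genes. It had 69.7, 125, 19.2 and 68.2 normalized counts in HhipCKO a to d, against 3.98, 4.09, 0 and 8.52 in Control a to d. These are whole counts of 74, 131, 20 and 70 in HhipCKO libraries, against 4, 4, 0 and 8 in Control libraries. Whether both reads of a pair were counted was not tested, and if they were, fewer fragments lie behind these counts: 64% of the nonzero counts used for calibration were even. No Control library reached the lowest HhipCKO library. The fold was 17 (95% interval 5.69 to 51, log2 fold change 4.09 ± 0.81 SE, p = 4.03e-07 per the authors' deposited table), the adjusted p over every gene with a p-value was 0.000155, and the exact permutation p was 0.0286. Cd300e lies on chromosome 11, bases 115051917 to 115062177, minus strand.

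Treml4, a TREM-like receptor of nonclassical monocytes and some dendritic cells that binds dying cells, had 42.4, 79.3, 18.2 and 13.6 normalized counts in HhipCKO a to d, against 3.98, 0, 4.2 and 5.33 in Control a to d. The groups again did not overlap, although counts were few, with 14 in HhipCKO d and 5 in Control d. The fold was 11.4 (95% interval 3.42 to 37.9, log2 fold change 3.51 ± 0.89 SE, p = 7.43e-05 per the authors' deposited table), the adjusted p over every gene with a p-value was 0.0065, and the exact permutation p was 0.0286. Treml4 lies on chromosome 17, bases 48264295 to 48275360, plus strand.

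Adgre4, an adhesion G protein-coupled receptor of the family of the macrophage antigen F4/80, had 93.3, 293, 18.2 and 63.3 normalized counts in HhipCKO a to d, against 36.9, 24.6, 16.8 and 16 in Control a to d. The groups overlapped, because HhipCKO c lay below Control a and Control b. The log2 fold change was 2.31 ± 0.73 SE (adjusted p = 0.0302 per the authors' deposited table), and the exact permutation p was 0.0857. With the length trend removed the log2 fold change was 2.30 and the adjusted p 0.0523 (Wald test). Without HhipCKO b the log2 fold change was 1.31, and the Wald test of that refit no longer reached 0.00348, the largest unadjusted p called in the deposited table. It also missed this limit without HhipCKO a, Control b, Control c or Control d, at log2 fold changes of 2.41, 2.33, 2.18 and 2.16. Adgre4 lies on chromosome 17, bases 55749984 to 55853662, plus strand.

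Clec4a3, a C-type lectin receptor and the last of the 6 nonclassical monocyte genes, had 57.5, 77.3, 0 and 35.1 normalized counts in HhipCKO a to d, against 21.9, 0, 25.2 and 0 in Control a to d. Zero counts in HhipCKO c, Control b and Control d left it unresolved, at a log2 fold change of 1.85 ± 1.63 SE (p = 0.255 per the authors' deposited table).

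Fcgr4, Fgr, Cd300e and Treml4 were 4 of the 21 recovered genes, or 19%, whose HhipCKO libraries all lay above the Control libraries, and none lay wholly below. Among 395 other genes of mean count 5 to 100 whose counts were recovered, 1.52% lay wholly above and 3.8% wholly below. The 21 genes had mean counts of up to 172, so these shares are not matched for count. The list was chosen with earlier results of these data known, so this comparison is a description and no test. Fgr, Fcgr4, Cd300e and Treml4 also stayed past an unadjusted p of 0.00348 when each of the 8 libraries was left out in turn. Their log2 fold changes were then at lowest 1.74 for Fgr, 1.74 for Fcgr4, 3.66 for Cd300e and 2.88 for Treml4, each without HhipCKO b except for Fcgr4, where HhipCKO a was left out.

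**Figure D2:**
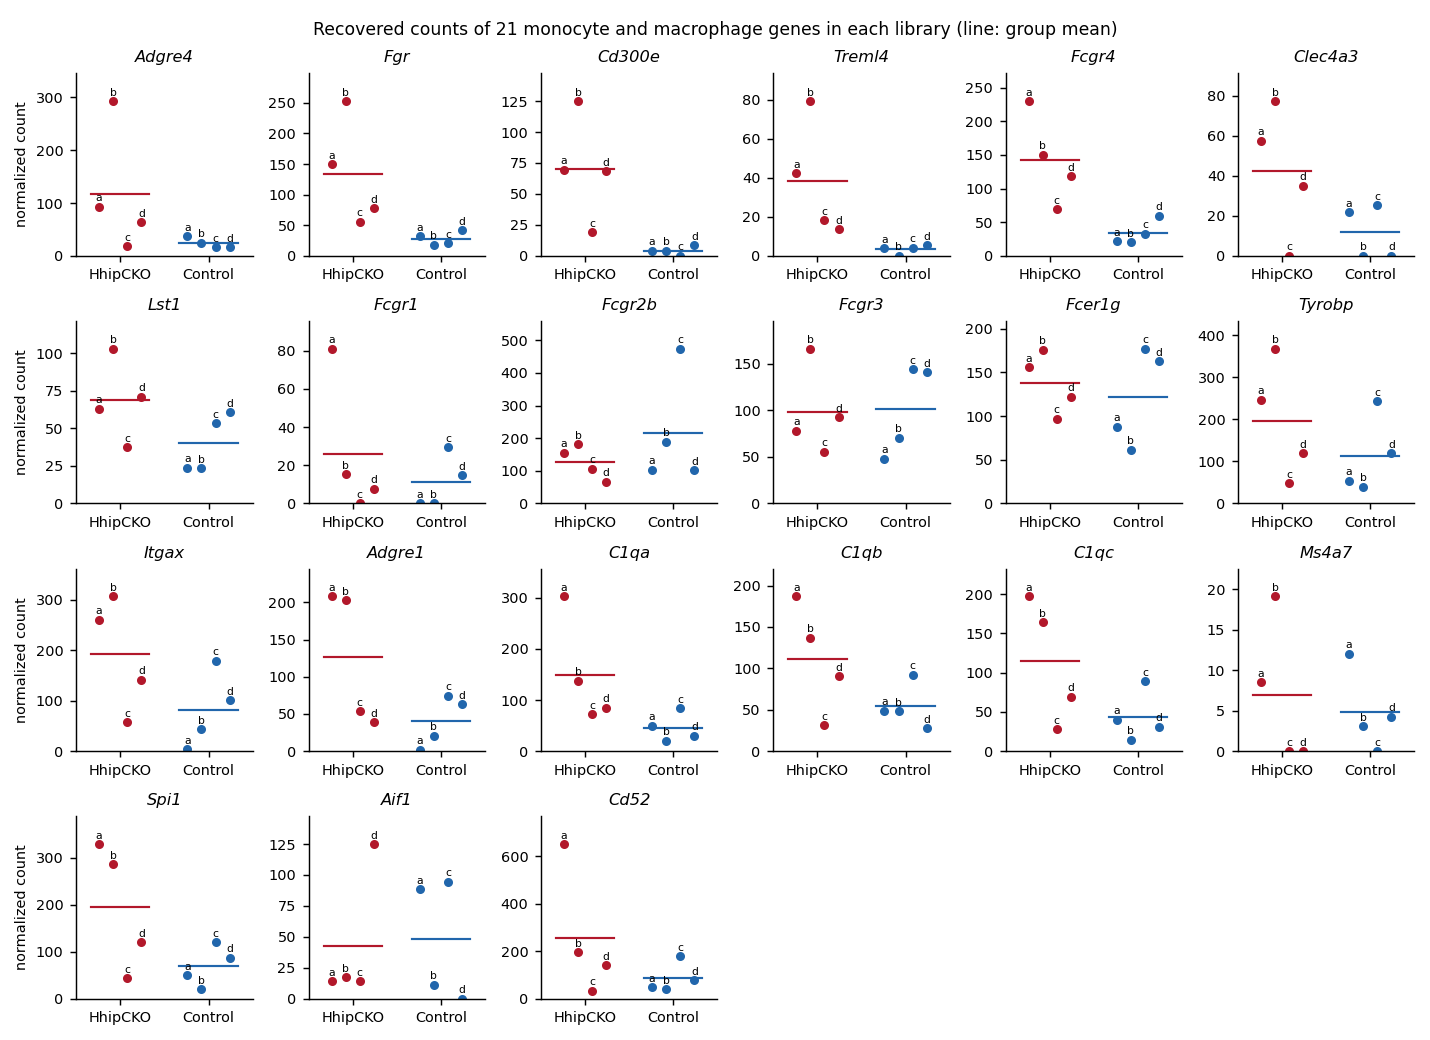
Normalized counts (vertical axis, linear, from 0) of the 21 genes with recovered counts, in HhipCKO (left) and Control (right) libraries a to d, with a line at each group mean. In Fcgr4, Fgr, Cd300e and Treml4 all 4 HhipCKO libraries lie above all 4 Control libraries, and in the other 17 genes the groups overlap.

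**Figure D3:**
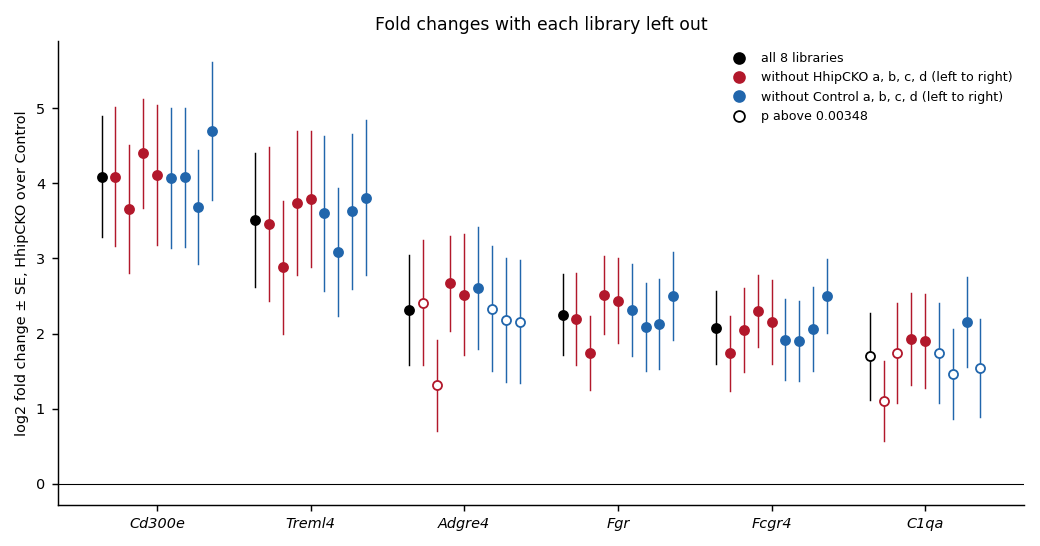
Log2 fold change (vertical axis, bars are the SE) of 6 genes with all 8 libraries and with each library left out, where open circles did not reach the largest unadjusted p called. Cd300e, Treml4, Fgr and Fcgr4 stay filled throughout, Adgre4 falls to 1.31 without HhipCKO b, and C1qa runs from 1.10 without HhipCKO a to 2.16 without Control c.

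The 3 genes grouped here under classical monocytes, of which Plac8 and Lst1 are not specific to these cells, were higher in HhipCKO samples and none passed. Ly6c2, which encodes the Ly6C antigen, had implied means of 1062 in HhipCKO and 392 in Control samples (log2 fold change 1.44 ± 0.81 SE, adjusted p = 0.293 per the authors' deposited table). Plac8, a small cysteine-rich protein made by many leukocytes, had implied means of 5515 and 2785 in HhipCKO and Control samples (0.99 ± 0.43 SE on the log2 scale, adjusted p = 0.146 per the authors' deposited table). Lst1, a leukocyte membrane protein, had 63.1, 103, 37.4 and 71.1 normalized counts in HhipCKO a to d, against 23.9, 23.5, 53.6 and 60.7 in Control a to d. Its groups overlapped through HhipCKO c, and the exact permutation p was 0.143. The calgranulins S100a8 and S100a9, abundant in neutrophils and classical monocytes, had log2 fold changes of 0.70 ± 0.83 and 0.91 ± 1.01 (SE) per the authors' deposited table.

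None of the other Fc receptors passed. The low-affinity receptor Fcgr3 had 78.2, 166, 55.6 and 92.6 normalized counts in HhipCKO a to d, against 47.8, 70.6, 144 and 141 in Control a to d. The 2 groups covered the same range, with a log2 fold change of -0.04 ± 0.48 SE per the authors' deposited table (95% interval -0.98 to 0.90). The inhibitory receptor Fcgr2b had 155, 181, 106 and 66.3 normalized counts in HhipCKO libraries a to d, against 104, 189, 474 and 102 in Control a to d. Control c stood apart from the other 7 libraries, and the log2 fold change of -0.77 ± 0.54 SE did not pass (adjusted p = 0.427 per the authors' deposited table). The difference between Fcgr4 and these 2 genes was not tested. Fcgr1, the high-affinity receptor, had 81, 15.3, 0 and 7.8 normalized counts in HhipCKO a to d, against 0, 0, 29.4 and 14.9 in Control a to d, too few to read a direction. Fcgr2b and Fcgr3 share long stretches of sequence, and the authors' counting could split their reads.

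Fcer1g, the signalling chain that the activating Fc receptors need, had 156, 176, 96.8 and 122 normalized counts in HhipCKO a to d, against 87.7, 61.4, 177 and 163 in Control a to d. Its groups overlapped widely (log2 fold change 0.17 ± 0.39 SE, adjusted p = 0.849 per the authors' deposited table). Tyrobp, the adaptor DAP12 of many myeloid receptors, had 247, 368, 47.9 and 120 normalized counts in HhipCKO a to d, against 53.8, 39.9, 243 and 119 in Control a to d. Control c thus stood level with HhipCKO a.

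The complement C1q genes, whose products assemble into 1 complex and which lie side by side on chromosome 4 between bases 136880129 and 136898803 (GRCm38, GENCODE M21), were higher in HhipCKO a and b. C1qa had 303, 138, 71.9 and 84.8 normalized counts in HhipCKO a to d, against 49.8, 20.5, 84 and 29.8 in Control a to d. Control c lay above HhipCKO c, and the log2 fold change of 1.70 ± 0.58 SE missed the threshold at an adjusted p of 0.0508 per the authors' deposited table (exact permutation p = 0.0571). Without HhipCKO a it was 1.10, and without Control c it was 2.16. C1qb had 187, 137, 31.6 and 90.6 normalized counts in HhipCKO a to d, against 48.8, 48.1, 92.5 and 27.7 in Control a to d. C1qc had 197, 164, 27.8 and 69.2 normalized counts in HhipCKO a to d, against 39.8, 14.3, 89.3 and 30.9 in Control a to d. All 3 genes had the same low HhipCKO library, c, and the same high Control library, c.

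Adgre1, which encodes F4/80, had 208, 203, 53.7 and 39 normalized counts in HhipCKO a to d, against 1.99, 20.5, 74.6 and 62.8 in Control a to d, and its groups overlapped (exact permutation p = 0.171). Ms4a7, a tetraspan protein of tissue macrophages, had at most 19.1 normalized counts in any library. Csf1r, the receptor for the growth factor on which macrophages depend, went the other way without passing, with implied means of 2445 in HhipCKO and 3689 in Control samples (log2 fold change -0.59 ± 0.39 SE, adjusted p = 0.396 per the authors' deposited table). Per kb of transcript its mean level was 652 normalized counts, against 65.7 to 94.1 for the C1q genes.

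The 5 alveolar macrophage genes all had positive values and none passed. Chil3, the chitinase-like protein Ym1, had implied means of 1503 in HhipCKO and 587 in Control samples (log2 fold change 1.36 ± 1.03 SE, adjusted p = 0.474 per the authors' deposited table). Itgax, the integrin CD11c, had 261, 307, 57.5 and 142 normalized counts in HhipCKO a to d, against 3.98, 43, 179 and 101 in Control a to d, a wide overlap. The scavenger receptor Marco stood at 2.22 ± 2.38 (SE), the largest error of the 41 genes, the ribonuclease Ear2 at 0.73 ± 0.81 and the mannose receptor Mrc1 at 0.10 ± 0.43 on the log2 scale per the authors' deposited table.

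The lysozyme genes were by far the most abundant per length. Lyz2, the lysozyme of macrophages that alveolar type 2 cells also make, had 42815 normalized counts per kb of transcript in HhipCKO and 14796 in Control samples, and Lyz1, its close relative, 7670 and 3311. Their log2 fold changes were 1.53 ± 1.35 and 1.21 ± 1.35 (SE), with adjusted p of 0.556 and 0.662 per the authors' deposited table, so the 95% interval for Lyz2 ran from 0.459-fold to 18.2-fold. Next came Plac8, with 4506 normalized counts per kb in HhipCKO and 2275 in Control samples, and S100a9, with 1016 and 541. The 10 alveolar type 2 markers had a median log2 fold change of 1.34, 9 of 10 positive, none past the threshold, and their summed implied means were 297595 in HhipCKO and 124005 in Control samples. The part of alveolar type 2 RNA in the lysozyme values was not tested. Lyz1 and Lyz2 are nearly identical in sequence, so reads could be split between them by the authors' counting.

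Among lysosomal and phagocyte effectors, Cybb, the catalytic subunit of the phagocyte oxidase, came nearest to the threshold, with implied means of 543 in HhipCKO and 189 in Control samples (log2 fold change 1.52 ± 0.59 SE, adjusted p = 0.0942 per the authors' deposited table). The protease cathepsin S, Ctss, had a similar value with a larger error, 1.66 ± 0.98 SE (adjusted p = 0.321 per the authors' deposited table). Mpeg1, the pore-forming perforin-2, stood at 1.03 ± 0.97 (SE) per the authors' deposited table. Cd68, a lysosomal glycoprotein, and Cd14, the co-receptor for lipopolysaccharide, were less variable and differed little, at 0.40 ± 0.34 and 0.29 ± 0.32 (SE) per the authors' deposited table.

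Of the 7 genes shared by most leukocytes, none passed. Ptprc, which encodes the CD45 antigen used to remove leukocytes in the sort, had implied means of 890 in HhipCKO and 611 in Control samples (log2 fold change 0.54 ± 0.55 SE, adjusted p = 0.628 per the authors' deposited table). Spi1, which encodes PU.1, had 329, 286, 43.1 and 120 normalized counts in HhipCKO a to d, against 49.8, 20.5, 120 and 87.3 in Control a to d. HhipCKO a and b stood above every Control library and HhipCKO c below all but Control b (log2 fold change 1.49 ± 0.66 SE, adjusted p = 0.156 per the authors' deposited table). Cd52, a small surface glycoprotein, had 651, 195, 34.5 and 140 normalized counts in HhipCKO a to d, against 47.8, 39.9, 179 and 78.8 in Control a to d, and its log2 fold change was 0.51 without HhipCKO a and 1.56 with all libraries. Coro1a, an actin regulator, had implied means of 725 in HhipCKO and 362 in Control samples (adjusted p = 0.244), and Laptm5, a lysosomal membrane protein, 823 and 490 (adjusted p = 0.478), with both adjusted p taken from the authors' deposited table. Itgam, the integrin CD11b, had a log2 fold change of 1.06 ± 1.37 SE and no p-value per the authors' deposited table. Aif1, the actin-binding protein Iba1, was set by single libraries, with 14.1, 17.2, 14.4 and 125 normalized counts in HhipCKO a to d, against 88.7, 11.3, 94.6 and 0 in Control a to d.

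The libraries did not carry these genes evenly. Of the 21 genes with recovered counts, 20 were highest among HhipCKO libraries in a or b, and 17 were lowest in c. Among Control libraries 14 of the 21 were highest in c. Summed over the 21 genes, normalized counts were 3582, 3454, 859 and 1666 in HhipCKO a to d, against 780, 673, 2132 and 1155 in Control a to d. The 6 nonclassical monocyte genes summed to 643, 978, 180 and 376 in HhipCKO a to d, against 121, 67.6, 99.8 and 131 in Control a to d. These sums did not overlap and Control c was not high. They include Fcgr4, Fgr, Cd300e and Treml4, already described as not overlapping gene by gene, so this is no separate result. Cx3cr1, with HhipCKO c below all Control libraries, was not part of the sum. The 5 recovered tissue macrophage genes summed to 904, 662, 185 and 284 in HhipCKO a to d, against 152, 106, 340 and 156 in Control a to d, with Control c above HhipCKO c and d.

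Lymphocyte genes followed part of the same pattern across libraries. The 4 recovered B cell markers summed to 466, 582, 53.7 and 297 normalized counts in HhipCKO a to d, against 57.8, 151, 598 and 169 in Control a to d, with HhipCKO c lowest and Control c highest. The 10 recovered T and NK cell markers summed to 865, 486, 256 and 476 in HhipCKO a to d, against 152, 335, 546 and 589 in Control a to d. The 6 recovered neutrophil markers summed to 287, 256, 23 and 121 in HhipCKO a to d, against 261, 63.5, 124 and 248 in Control a to d. In all 3 lists the groups overlapped, and HhipCKO c was the lowest HhipCKO library. The part of leukocytes that escaped the sort in these values was not tested.

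**Figure D4:**
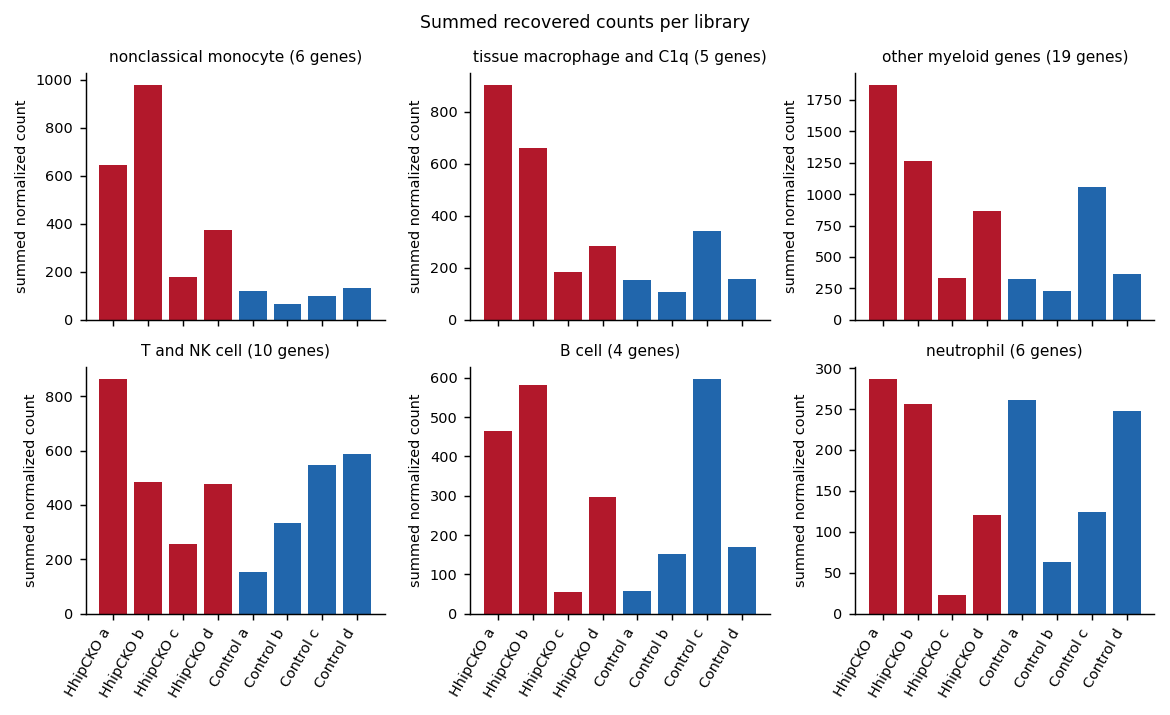
Summed normalized counts (vertical axis, linear, from 0) of the recovered genes of 6 lists in HhipCKO a to d (left bars) and Control a to d (right bars). The nonclassical monocyte sums are 180 or more in HhipCKO libraries and 131 or less in Control libraries, while in the other 5 lists at least 1 Control library exceeds HhipCKO c. The nonclassical sums include Fcgr4, Fgr, Cd300e and Treml4, whose groups do not overlap gene by gene.

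The spread between libraries was wide for these genes. The standard errors imply a dispersion, the squared coefficient of variation beyond counting noise, with a median of 0.413 over the 35 genes with an adjusted p, against 0.0346 over all such genes. At like mean count (within 20%), all 41 genes lay above the median dispersion and 23 lay above the 90th percentile. Lyz1 and Lyz2 had dispersions of 1.75 and 1.76, a coefficient of variation of 132% and 133%, where genes of like mean had medians of 0.0141 and 0.0191. Fcgr4 and Fgr were among the less dispersed, with 0.214 and 0.255, where genes of like mean had medians of 0.133 and 0.14.

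**Figure D5:**
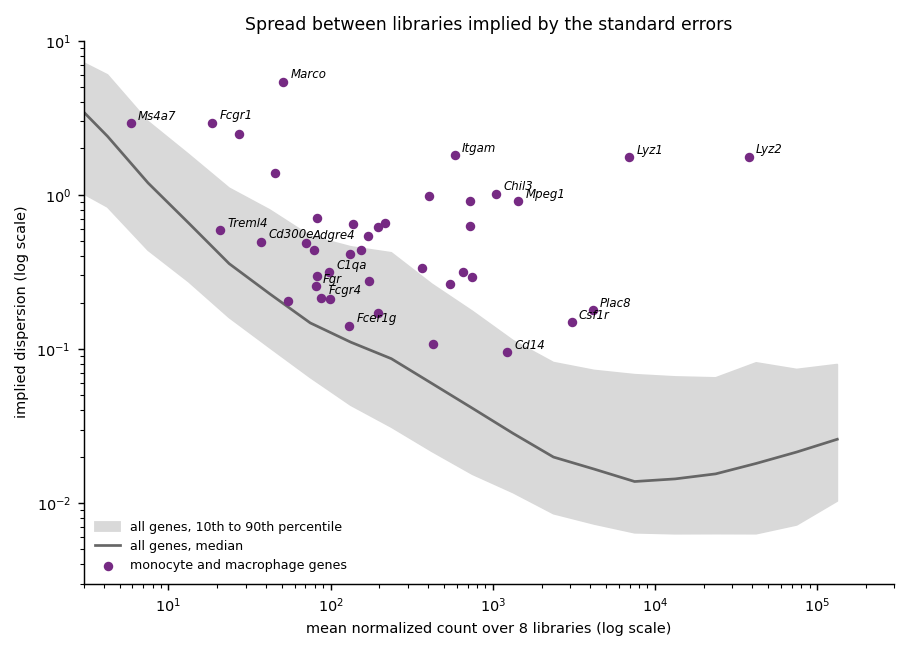
Implied dispersion (vertical axis, log scale) against mean normalized count (horizontal axis, log scale) of the 41 genes, over the median and the 10th to 90th percentile band of all genes. All 41 points lie above the median of genes of like mean, with Lyz1 and Lyz2 at 1.75 and 1.76 far above the band.

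Of 60 further myeloid genes, 59 were listed and 50 had an adjusted p, of which 3 rose, none fell and 47 did not pass. The median log2 fold change of the 59 was 0.60. Haptoglobin, Hp, a plasma protein that binds free haemoglobin and is not limited to myeloid cells, rose most clearly (log2 fold change 2.15 ± 0.29 SE, adjusted p = 4.07e-10 per the authors' deposited table). Cyba, the other membrane subunit of the phagocyte oxidase, which many cell types express, rose by 0.33 ± 0.09 SE on the log2 scale (adjusted p = 0.00589 per the authors' deposited table), a call that was lost with the length trend removed (0.15, adjusted p = 0.406, Wald test). Ccr2, the chemokine receptor of classical monocytes, had 153, 82.1, 24.9 and 64.3 normalized counts in HhipCKO a to d, against 18.9, 16.4, 25.2 and 39.4 in Control a to d. Only HhipCKO c overlapped the Control libraries, and the adjusted p was 0.0499 per the authors' deposited table, which became 0.0518 with median-centred fold changes, 0.0553 with the length trend removed and 0.0846 without the filter (Wald test). F13a1, the coagulation factor XIII A chain that monocytes and macrophages make, had a negative value just short of the threshold (log2 fold change -1.20 ± 0.41 SE, adjusted p = 0.0505 per the authors' deposited table), and it fell past the threshold with median-centred fold changes (adjusted p = 0.0459) and at a mean count of 500 or more (adjusted p = 0.0432, Wald test). Cx3cr1, the fractalkine receptor that nonclassical monocytes carry at high levels, had 90.5, 141, 15.3 and 97.4 normalized counts in HhipCKO a to d, against 38.8, 24.6, 41 and 51.1 in Control a to d, with HhipCKO c below all Control libraries. Nr4a1, the nuclear receptor on which nonclassical monocytes depend, had a mean count of 212967 and a log2 fold change of 0.09 ± 0.28 (SE) per the authors' deposited table. How much of the Nr4a1 count came from cells other than monocytes was not tested. Cx3cr1, Nr4a1, F13a1, Spn, Pglyrp1, Itgal, Eno3 and Ace were named after their values were seen.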

How the data were processed

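RNA from 4 HhipCKO and 4 Control samples was sequenced, and the submitters' processing notes name FastQC, STAR and DESeq on GRCm38 (mm10), without versions. Per the file headers, the authors deposited for each gene the mean over 8 libraries of the count signal divided by a size factor, the log2 fold change of HhipCKO over Control, its standard error and Wald score, the p-value and the adjusted p-value. Total counts per library are not given, and counting, strand setting and annotation are not given in the sources used here. The deposited values summed to a mean of 128669692 normalized counts per library.

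Counts per library were computed for low genes by a search for 8 whole counts that give the deposited mean, fold change (within 8e-10) and dispersion (within 0.002 on the log scale) when the 2-group negative binomial fit is repeated. The value of 1 count in each library came first from genes with counts in 1 library. It was refined on a further set of 1744 genes of low count, the calibration genes, of which 1741 had 1 solution. The search was tested on simulated data, set at levels below those of the highest recovered genes, such as Tyrobp, Spi1 and Cd52. Of 22 myeloid genes with a mean count under 180, 21 had 1 solution and Marco none, and 16 still had 1 with limits 10 times wider (Cd52, Fcgr2b, Itgax, Spi1 and Tyrobp did not). The group of a library follows from the side of the fold change it enters. Of nonzero calibration counts 64% were even. Fits without a library used the dispersion trend and prior of the whole table. The permutation test used log2(normalized count + 1), exactly, over 70 arrangements.

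Lengths and positions came from GENCODE M21 and promoters from RefSeq. Python 3.11.15, numpy 2.4.6 and scipy 1.17.1 were used. All 41 genes could be named. Values are given in full for those past 0.05, without a p-value, among the 4 with the highest level per kb, or among the 3 of their role with the largest Wald score, and for other lists likewise with 2. The genes and lists were chosen with earlier results of these data known.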

Additional observations from a re-analysis of the deposited data

Results flagged for a closer look

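Aif1, which encodes Iba1, had 125 normalized counts in HhipCKO d and 14.1, 17.2 and 14.4 in HhipCKO a, b and c, so 1 sample stood far from the others of its group. In Control a to d it had 88.7, 11.3, 94.6 and 0. Chance flags about 1 in 20 such groups, and 21 genes with 2 groups each were looked at.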

How the results depend on the processing

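The count of 3 genes called among the 41 was 3 with median-centred fold changes, 2 with the length trend removed (Fgr and Fcgr4) and 4 without the filter on low means (Fgr, Fcgr4, Cd300e and Treml4). It was 5 at an adjusted p of 0.1, 0 where the mean count had to be 500 or more, which holds none of the called genes, and 0 with Wald scores divided by their robust SD of 1.53 (Wald test in each). Over all libraries 11 genes had an unadjusted p below 0.05. The median log2 fold change of the 41 genes ran from 1.03 to 1.07. The 3 further myeloid genes called were also 3 with median-centred fold changes, where F13a1 (log2 fold change -1.22) took the place of Ccr2, 3 at a mean count of 500 or more (Hp and Cyba higher, F13a1 lower), 2 without the filter and 1, Hp, with the length trend removed. The median dispersion was 0.416 in place of 0.413 with 1 mean for both groups. Of the 21 recovered genes, 5 passed the unadjusted limit of 0.00348 with all libraries and 4 to 7 with each library left out, an alternative added after seeing the data. No paired analysis was possible because the recovered libraries carry no replicate number. Depth limits Ms4a7, Fcgr1 and Clec4a3, which had 0 counts in several libraries, and intervals cover the spread between libraries of this fit only.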

Other observations

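Within a library, the summed normalized count of the 6 nonclassical monocyte genes over that of the 5 recovered tissue macrophage genes does not depend on sequencing depth. This ratio, chosen after the values were seen, was 0.711, 1.48, 0.974 and 1.33 in HhipCKO a to d, against 0.791, 0.635, 0.293 and 0.842 in Control a to d. In 3 of 4 HhipCKO libraries it exceeded that of every Control library, and HhipCKO a lay below Control a and Control d. The ratio includes Fcgr4, Fgr, Cd300e and Treml4, already described as not overlapping gene by gene, so this is no separate result. Csf1r, also grouped under tissue macrophages, had no recovered counts and is not part of the ratio.

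Genes of other blood cells in the same preparations had no member past the threshold, although many had no adjusted p. The 6 erythroid genes had a median log2 fold change of -1.18, with 1 positive value, the 6 platelet genes one of 0.41, with 5 positive values, and the 7 mast cell and basophil genes one of -1.05, with 2 positive values and 6 genes without a p-value. The 16 neutrophil, 14 T and NK cell, 10 B cell and 12 listed dendritic cell genes had medians of 0.39, 0.29, 0.72 and 0.56. An adjusted p was given for 9, 6, 9 and 5 genes of these lists. The 12 endothelial genes had a median of -0.31.

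Pf4, platelet factor 4, had 191, 234, 77.6 and 20.5 normalized counts in HhipCKO a to d, against 9.96, 124, 39.9 and 12.8 in Control a to d. Gp9, a subunit of the platelet von Willebrand factor receptor, had 106, 180, 40.2 and 45.8 normalized counts in HhipCKO a to d, against 28.9, 144, 22.1 and 43.7 in Control a to d. For both, HhipCKO a and b were the highest HhipCKO libraries, as for most of the monocyte and macrophage genes, whereas the highest Control library was b.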
